A study of Mus musculus with 2 samples.

Results

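The 10 genes described here encode the parts of elastic fibres and the enzymes that join them: elastin (Eln), fibrillin-1 (Fbn1), 4 fibulins (Fbln2, Fbln5, Efemp1 and Efemp2), the microfibril-associated protein Mfap4, and the lysyl oxidases Lox, Loxl1 and Loxl2. They are 10 of the 23420 gene rows in the count table. The genes were chosen by name with earlier results of this genotype comparison known, so their differences between the groups are given as a description. RNA was sequenced from the RPE-choroid, that is, the retinal pigment epithelium (RPE), which nourishes the photoreceptors, and the vessel-rich choroid behind it. The mice were untreated and aged 11 to 13 months. One group had the genotype AhR -/- (strain B6.129-AhRtm1Bra/J), with the gene of the aryl hydrocarbon receptor targeted, and the other AhR +/+ (strain C57BL6/J). The labels name no promoter, Cre line or cell type for the allele, and the strains bear different names; a difference of strain and one of genotype cannot be told apart. Each group had 3 animals, and RNA from 2 eyes was pooled for each library.

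The comparison asks which transcripts of this tissue differ between the genotypes at the same age. The libraries held from 18058725 to 28692624 counts assigned to genes. Levels are given as CPM (counts scaled to a common library size), and differences as log2 fold changes of knockout-labelled over wild-type libraries. The targeted gene Ahr had 41.4, 45.4 and 40.6 CPM in the 3 knockout-labelled libraries, above the 19.7, 20.2 and 26.0 CPM of wild type. Because reads were tallied per gene and not per exon, this value says nothing of the targeted segment, and the directions below rest on the labels. The share of reads set aside as not uniquely aligned was higher in every knockout-labelled library (22.94 to 25.06%) than in wild type (18.7 to 19.36%), and its part in the differences below was not tested. The RPE marker Rpe65 reached 1326 to 2987 CPM in the 6 libraries, so the labelled tissue was present in each.

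Elastic fibres are built outside the cell. Cells secrete soluble tropoelastin, fibulins help to place it on a scaffold of fibrillin microfibrils, and lysyl oxidases cross-link it into a lasting elastic core. In Bruch's membrane, the sheet between the RPE and the choroidal capillaries, an elastic layer lies between collagen layers, and vessel walls of the choroid hold elastic fibres as well.

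The aryl hydrocarbon receptor binds DNA with its partner Arnt at a short core, GCGTG. The core is shared with other Arnt-type factors. The RefSeq promoter table (GRCm38.p6) held 5 of the 10 genes: Fbn1, Fbln2, Fbln5, Efemp1 and Efemp2. The 250 bases before each listed start were searched for GCGTG on both strands. It was present for Efemp1, Fbln5 and Efemp2, and 28.2% of 27025 promoters, 1 per gene, hold it. The matches are shown with their neighbouring bases because they are the only places in these windows where the letters of the receptor's core occur. The windows read 5′ to 3′ on the strand of the gene, with the core in capitals (CACGC is the core read from the other strand):
Efemp1, chr11:28853118-28853142, plus strand: gcgccttcccGCGTGgttggaagcc
Fbln5, chr12:101819292-101819316, minus strand: ttaggggtacCACGCttgttccagc
Fbln5, chr12:101819246-101819270, minus strand: cccaattgctCACGCgtctttcgtc
Fbln5, chr12:101819178-101819202, minus strand: agcctgatgaCACGCcccctcgcac
Fbln5, chr12:101819166-101819190, minus strand: cgccccctcgCACGCgccccgctcc
Efemp2, chr19:5473793-5473817, plus strand: gaaccctggaCACGCaaccctttcc
The core began 77 bases before the start of Efemp1, 143 before the first start of Efemp2, and 187, 141, 73 and 61 before the first start of Fbln5. The last 2 windows of Fbln5 overlap each other. A later start listed for Fbln5 and 2 later starts of Efemp2 had no match in their own windows, nor had the windows of Fbn1 and Fbln2. A match of these letters is a description of the sequence. The promoters of the other 5 genes were not analysed here.

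Elastin had the largest difference of the 10 genes. Eln (chromosome 5, 134702593 to 134747323, minus strand, GRCm38) reached 48.5, 42.9 and 33.7 CPM in the knockout-labelled animals 1 to 3 and 121, 94.0 and 113 CPM in the wild-type animals 1 to 3. Every knockout-labelled library lay below every wild-type library. The means were 41.7 ± 7.45 and 109 ± 13.9 CPM (SD, n = 3 each), a ratio of 2.62 between wild type and knockout-labelled. The log2 fold change was -1.39 (SE 0.16; edgeR quasi-likelihood adjusted p = 0.0389). Among the 15796 genes tested, 8 were called at an adjusted p under 0.05 (0.0506%), and Eln was the only one of the 10 genes among them. Eln ranked 4 by p-value, and 1.04% of the genes tested had a lower log2 fold change.

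The call of Eln held in 10 of 18 other settings, over which its log2 fold change ran from -1.52 to -1.15 and its adjusted p from 3.49e-10 to 0.24. The settings that lost it included those without knockout-labelled animal 2 or 3 (adjusted p = 0.147 and 0.24), those without wild-type animal 1, 2 or 3 (0.0577, 0.109 and 0.17), that with sex as a covariate (0.0581), and that with a correction for transcript GC content (log2 fold change -1.15, adjusted p = 0.079, edgeR). The transcripts of Eln hold 58.8% GC, against a median of 49.9% over the genes tested.

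**Figure D1:**
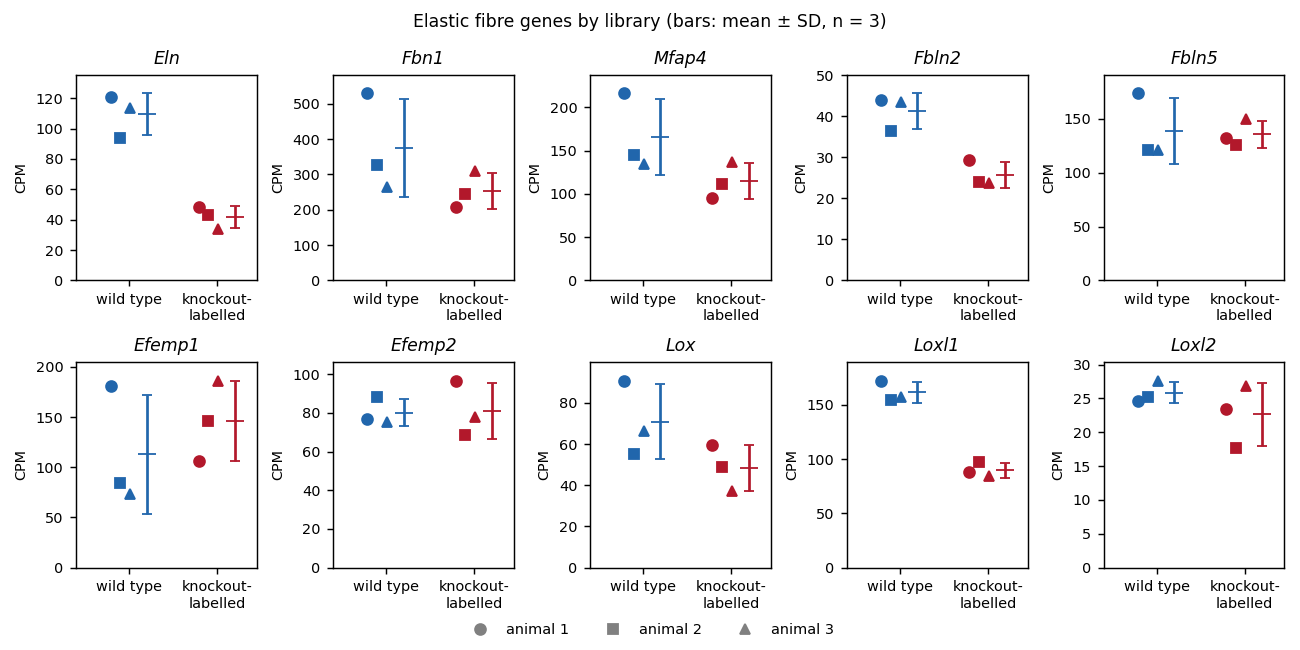
CPM of the 10 elastic fibre genes in each library, in wild-type and knockout-labelled animals, with a marker shape for each animal number and bars for the mean ± SD (n = 3). The groups do not overlap for Eln, Fbln2 and Loxl1, and Fbn1, Mfap4 and Efemp1 spread widely among the wild-type animals.

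Fbn1 encodes fibrillin-1, the main protein of the microfibril scaffold. Fbn1 (chromosome 2, 125300594 to 125507993, minus strand) reached 207, 244 and 309 CPM in the knockout-labelled and 530, 328 and 265 CPM in the wild-type animals 1 to 3. Wild-type animal 3 lay within the knockout-labelled range, and wild-type animal 1 stood 2.00-fold above wild-type animal 3. For Fbn1 the log2 fold change was -0.56 (SE 0.26, edgeR adjusted p = 0.369), which did not pass.

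Mfap4 encodes a fibrinogen-like protein that binds microfibrils and elastin. Mfap4 (chromosome 11, 61485431 to 61488900, plus strand) reached 95.6, 112 and 137 CPM in the knockout-labelled and 216, 145 and 135 CPM in the wild-type animals 1 to 3. Only knockout-labelled animal 3 and wild-type animal 3 overlapped, and the order of the libraries within each group was that of Fbn1. In the fit, Mfap4 had a log2 fold change of -0.53 (SE 0.21; adjusted p in edgeR = 0.305). Exons of Mfap4 overlap those of Mapk7 on the other strand, and without a stated strand setting of the counting their reads cannot be told apart.

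The fibulins are secreted proteins that bind elastin, fibrillin and the lysyl oxidases. Fbln2 (chromosome 6, 91212455 to 91272540, plus strand), fibulin-2, reached 29.2, 24.0 and 23.7 CPM in the knockout-labelled and 44.0, 36.3 and 43.5 CPM in the wild-type animals 1 to 3. The groups did not overlap, with means of 25.6 ± 3.14 and 41.3 ± 4.32 CPM (SD, n = 3 each). The log2 fold change of Fbln2 was -0.69 (SE 0.16), with an edgeR quasi-likelihood adjusted p of 0.145, which did not pass. After the GC correction that log2 fold change was -0.50 (edgeR adjusted p = 0.256). In DESeq2 and in edgeR's exact test Fbln2 was called, along with Eln and Loxl1; those tools called 3.0% and 2.23% of all genes they tested.

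Fbln5 encodes fibulin-5, which binds tropoelastin and tethers Loxl1. Fbln5 (chromosome 12, 101746565 to 101819055, minus strand) reached 132, 125 and 150 CPM in the knockout-labelled and 174, 121 and 121 CPM in the wild-type animals 1 to 3. The groups overlapped and their means lay together, at 136 ± 12.6 and 138 ± 30.5 CPM (SD, n = 3 each). Fbln5 had a log2 fold change of -0.03 (SE 0.17; adjusted p in edgeR = 0.954).

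Efemp2 encodes fibulin-4, which brings Lox to tropoelastin. Efemp2 (chromosome 19, 5473954 to 5482517, plus strand) reached 96.7, 68.4 and 78.1 CPM in the knockout-labelled and 77.0, 88.3 and 75.2 CPM in the wild-type animals 1 to 3. The knockout-labelled libraries spanned the whole range of the wild-type ones. Its log2 fold change was 0.02 (SE 0.15, edgeR adjusted p = 0.971), and exons of Efemp2 overlap those of Mus81 on the other strand, so their reads cannot be told apart.

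Efemp1 encodes fibulin-3, the gene of an inherited form of macular drusen. Efemp1 (chromosome 11, 28853204 to 28926743, plus strand) reached 106, 146 and 186 CPM in the knockout-labelled and 181, 83.8 and 73.1 CPM in the wild-type animals 1 to 3. Wild-type animal 1 lay among the knockout-labelled libraries, and the other wild-type animals below all of them. The log2 fold change of Efemp1 was 0.38 (SE 0.33, edgeR adjusted p = 0.655), the highest of the 10 genes and the one with the largest SE.

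The lysyl oxidases make the cross-links of elastin and collagen. Loxl1 (chromosome 9, 58287738 to 58313186, minus strand), needed for the upkeep of elastic fibres in adult tissues, reached 88.0, 97.1 and 84.0 CPM in the knockout-labelled and 172, 155 and 157 CPM in the wild-type animals 1 to 3. The groups stood far apart relative to their spread, at 89.7 ± 6.72 and 162 ± 9.50 CPM (SD, n = 3 each), a ratio of 1.80 between wild type and knockout-labelled. The log2 fold change of Loxl1 was -0.85 (SE 0.12), and its edgeR quasi-likelihood adjusted p of 0.0502 lay just above the threshold. Loxl1 was called in 9 of 18 other settings, with adjusted p from 5.36e-07 to 0.33. Its transcripts were the richest in GC of the 10 genes (61.0%), and after the GC correction its log2 fold change was -0.53 (edgeR adjusted p = 0.246).

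Lox (minus strand, 52516067 to 52529867 of chromosome 18), the founding member of the family, reached 59.4, 48.7 and 37.1 CPM in the knockout-labelled and 90.8, 55.4 and 66.4 CPM in the wild-type animals 1 to 3. Knockout-labelled animal 1 lay above wild-type animal 2, so the groups overlapped by that pair. Lox had a log2 fold change of -0.55 (SE 0.22; adjusted p in edgeR = 0.311). Loxl2 (chromosome 14, 69609068 to 69695834, plus strand), which also acts on basement membrane collagen, reached 23.4, 17.7 and 26.9 CPM against 24.7, 25.3 and 27.6 CPM. Its groups overlapped, and its log2 fold change was -0.19 (SE 0.18, edgeR adjusted p = 0.687). Exons of Eln, Fbn1, Lox and Loxl2 overlap annotated genes on the other strand that have no row of their own in the count table.

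All 10 genes passed the filter on low counts. Of these, 8 had a log2 fold change below 0 and 2 above it, with a median of -0.54 against 0.01 over all genes tested. There was no overlap between the groups for 3 of the 10, all lower in the knockout-labelled libraries, where 9.96% of all genes tested were lower without overlap. At an unadjusted p under 0.05, 5 of the 10 were lower (Eln, Loxl1, Fbln2, Mfap4 and Lox), where 6.62% of all genes were. These counts come from the contrast that led to the choice of the genes. In the authors' deposited table, with its sign turned to knockout over wild type, 2 of the 10 had an FDR under 0.05, where 2.37% of its genes did: Eln (log2 fold change -1.41, FDR 1.63e-08) and Loxl1 (-0.86, FDR 0.00301). Fbln2 followed in that table at an FDR of 0.0663.

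**Figure D2:**
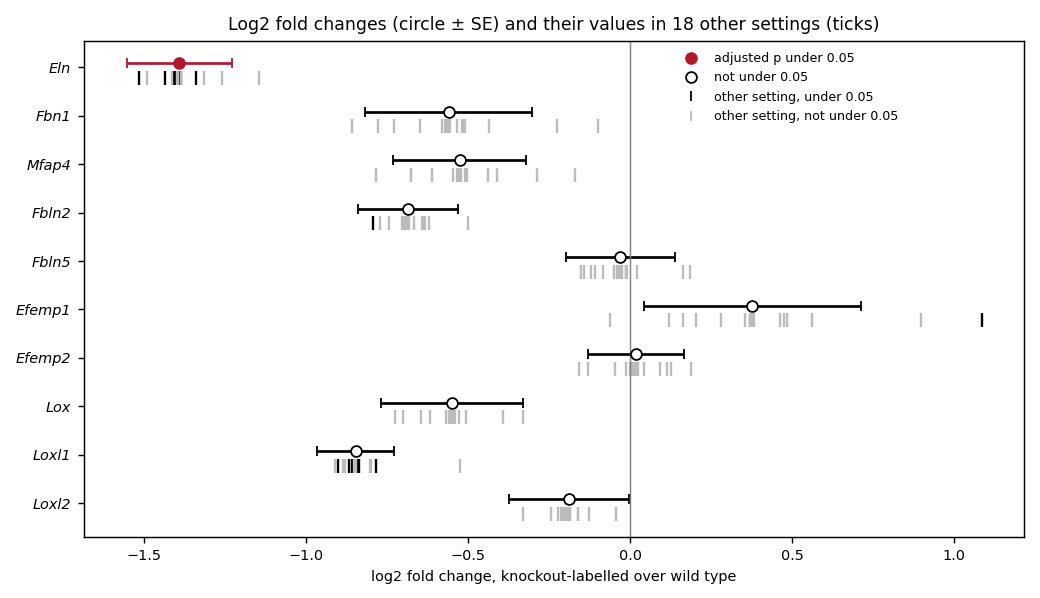
Log2 fold change of knockout-labelled over wild type for the 10 genes, as circles with SE bars (filled where the adjusted p was under 0.05), and the same value in 18 other settings as ticks below (black where the adjusted p was under 0.05). Eln lies between -1.52 and -1.15 in the other settings, and Fbln5, Efemp1 and Efemp2 have ticks on both sides of 0.

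The level of each gene was also divided by the length of its exons (CPM per kilobase of the union of annotated exons), so that genes could be set side by side. In wild type the order of these levels per length was Mfap4 (86.1 ± 23.0), Efemp1 (55.3 ± 29.3), Loxl1 (49.0 ± 2.88), Fbn1 (30.8 ± 11.4), Efemp2 (21.2 ± 1.87), Fbln5 (20 ± 4.41), Lox (14.8 ± 3.80), Eln (13.5 ± 1.72), Fbln2 (6.48 ± 0.68) and Loxl2 (4.79 ± 0.29; SD, n = 3 each). Neighbours in that order overlapped in their libraries, except Loxl1 above Fbn1, Eln above Fbln2, and Fbln2 above Loxl2. Elastin itself thus stood near the bottom of its own assembly set in this adult tissue when levels were divided by the union of exons. The place of Eln depends on the length used, since its union of exons (8098 bases) is longer than its longest transcript (3853 bases). Per kilobase of the longest transcript its wild-type level was 28.4 ± 3.61 (SD, n = 3). That placed it in the middle of the order, between Efemp2 (30.4 ± 2.69) and Fbln5 (23.8 ± 5.23) on the same scale. In the knockout-labelled libraries the level per length of Eln was 5.15 ± 0.92 and that of Loxl1 27.2 ± 2.04, while Efemp1 had the highest mean of the 10 there, at 71.8 ± 19.6 (SD, n = 3 each).

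Ratios between genes within a library do not depend on the scaling of libraries. They were chosen with the values known and are given as a description. The groups did not overlap in 5 of the 9 pairs of genes for which a ratio was computed. These were Eln over Mfap4, Eln over Fbln5, Loxl1 over Eln, Lox over Eln and Efemp1 over Fbn1. All but the last contain Eln, which had the largest difference of the 10 genes, so they are not separate results. The share of ratios without overlap over all pairs of genes was not computed. Fbn1 and Mfap4, both of the microfibril, kept a narrow ratio per length: 0.343, 0.346 and 0.357 in the knockout-labelled and 0.388, 0.357 and 0.312 in the wild-type animals 1 to 3. The groups overlapped in this ratio although each of the pair varied in level. Eln over Fbn1 also overlapped, at 0.350, 0.263 and 0.163 against 0.342, 0.430 and 0.640. Elastin was lower against its partner fibulin-5 in every knockout-labelled library, with Eln over Fbln5 at 0.314, 0.292 and 0.192 against 0.594, 0.663 and 0.799. Relative to elastin, Lox and Loxl1 were higher in the knockout-labelled libraries, although their own means were lower there than in wild type. Their log2 fold changes were -0.55 and -0.85, against -1.39 for Eln, so these ratios restate the larger difference of Eln. Lox over Eln was 2.08, 1.92 and 1.86 against 1.27, 0.999 and 0.993, and Loxl1 over Eln was 4.46, 5.56 and 6.12 against 3.50, 4.05 and 3.41, with no overlap in either. Efemp1 over Fbn1 was 3.06, 3.57 and 3.59 in the knockout-labelled and 2.04, 1.52 and 1.64 in the wild-type animals 1 to 3. That ratio did not overlap either, although the groups overlapped in each of its genes. Of the summed level per length of the 10 genes, Eln made up 2.16% ± 0.63 in the knockout-labelled and 4.59% ± 0.86 in the wild-type libraries (SD, n = 3 each).

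**Figure D3:**
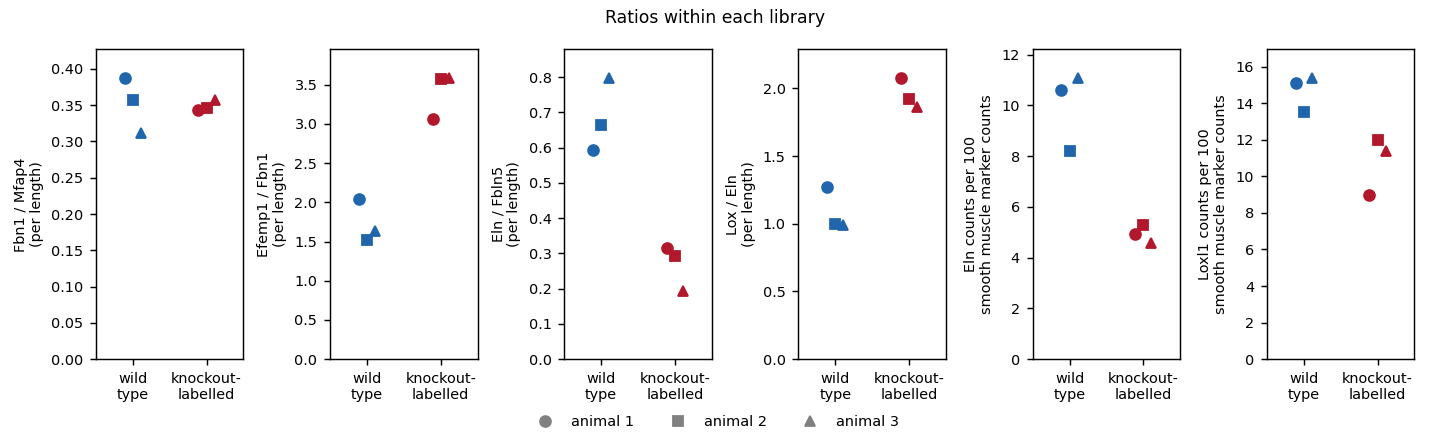
Ratios within each library for wild-type and knockout-labelled animals, with a marker shape for each animal number: 4 ratios of levels per length, and counts of Eln and Loxl1 per 100 counts of the smooth muscle and pericyte markers. Fbn1 over Mfap4 lies between 0.312 and 0.388 in all libraries, and the groups do not overlap in the other panels.

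Elastic fibre genes are made by several cell types of the choroid and of the sclera behind it. No marker of those cells was called in edgeR's quasi-likelihood test, but their summed levels were lower in the knockout-labelled libraries. In bulk RNA, fewer cells of a type and less RNA per cell cannot be told apart. The 8 smooth muscle and pericyte markers summed to 737 to 982 CPM in the knockout-labelled and 1024 to 1145 CPM in the wild-type libraries. Of the 8, 4 (Tagln, Rgs5, Pdgfrb and Cspg4) were lower without overlap. The others overlapped, with log2 fold changes from -0.69 for Cnn1 to 0.08 for Des. Of all genes tested, 9.96% were lower without overlap, and this share applies to the next marker lists too. The 7 fibroblast markers summed to 8445 to 9104 against 9714 to 11970 CPM, with the collagen genes Col1a1 and Col1a2 lower without overlap. The other fibroblast markers overlapped: Pdgfra, Dcn and Dpt had log2 fold changes of -0.11, -0.14 and -0.11, Serpinf1 -0.37 and Lum 0.33. The 8 endothelial markers summed to 615 to 932 against 932 to 1004 CPM, with Tie1 and Cldn5 lower without overlap. The other endothelial markers overlapped, with log2 fold changes from -0.55 for Plvap to 0.18 for Emcn. The sclera and cartilage markers summed to 646 to 1030 against 1054 to 1729 CPM, with Chad and Matn4 lower without overlap. The others tested in that list overlapped, with log2 fold changes from -0.74 for Fmod to 0.13 for Cilp. None of the markers of these 4 lists was at 0 in all libraries.

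Set against these markers, elastin was lower without overlap for 3 of the 4 lists. The share of all genes without overlap when set against the same marker sums was not computed. Eln had 4.94, 5.30 and 4.57 counts per 100 smooth muscle and pericyte marker counts in the knockout-labelled animals 1 to 3, and 10.6, 8.20 and 11.1 in the wild-type animals 1 to 3. The groups did not overlap, so the difference in Eln was larger than that in these markers. Per 100 fibroblast marker counts Eln had 0.559, 0.471 and 0.399 against 1.20, 0.967 and 0.947, with no overlap. Dcn alone made up most of the fibroblast sum, at 5561 to 7141 CPM in the 6 libraries. Col1a1, with a log2 fold change of -1.17, had only 255 to 859 CPM in that sum. Eln was not set against single markers. Per 100 endothelial marker counts Eln had 5.20, 5.91 and 5.48 against 12.0, 10.1 and 11.5, also with no overlap. Per 100 sclera and cartilage marker counts it had 7.50, 4.17 and 4.12 against 8.35, 8.92 and 6.56, and there the groups overlapped. Loxl1 had 8.96, 12.0 and 11.4 counts per 100 smooth muscle and pericyte marker counts against 15.1, 13.5 and 15.4, with no overlap, and overlapped per 100 sclera and cartilage marker counts (13.6, 9.43 and 10.3 against 11.9, 14.7 and 9.11). Fbln2 overlapped per 100 smooth muscle and pericyte marker counts, at 2.98, 2.96 and 3.21 against 3.84, 3.17 and 4.25, and per 100 sclera and cartilage marker counts. It was lower without overlap per 100 fibroblast marker counts (0.337, 0.263 and 0.280 against 0.437, 0.373 and 0.364) and per 100 endothelial marker counts (3.14, 3.30 and 3.85 against 4.38, 3.89 and 4.40).

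Markers of other tissues also differed between libraries. The cornea and conjunctiva markers summed to 2344 to 12660 CPM in the knockout-labelled and 2025 to 4647 CPM in the wild-type libraries, with overlap. All 8 tested had a log2 fold change above 0 (median 1.24), from 0.62 for Dsg1a to 2.16 for Krt12. In edgeR's quasi-likelihood test 6 were higher at an unadjusted p under 0.05, where 7.55% of all genes were. None was called or free of overlap. The RPE markers summed to 20690 to 36050 against 27580 to 38050 CPM, also with overlap. The erythroid markers summed to 55.7 to 1060 against 4.29 to 33.7 CPM, with 4 of the 6 in the table and Hba-a1 and Hba-a2 listed at 0 in all libraries. The part of these tissues in the differences of the elastic fibre genes was not tested, apart from a fit with the cornea markers as a covariate, in which Eln and Loxl1 were called. Other log2 fold changes moved in that fit without being called: Efemp1 from 0.38 to -0.062, Fbn1 from -0.56 to -0.86 and Mfap4 from -0.53 to -0.79.

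Within each group the 10 genes did not vary as 1 block. Eln, Fbn1, Fbln2, Fbln5, Efemp1, Mfap4, Lox and Loxl1 were each highest in wild-type animal 1. Among the knockout-labelled libraries Fbn1, Fbln5, Efemp1, Mfap4 and Loxl2 were highest in animal 3, where Eln, Fbln2, Lox and Loxl1 were lowest. The highest wild-type library stood above the lowest by 2.48-fold for Efemp1, 2.00-fold for Fbn1, 1.64-fold for Lox and 1.60-fold for Mfap4, against 1.29-fold for Eln and 1.11-fold for Loxl1. Loxl1 had the smallest such ratio of the 10 genes in the knockout-labelled libraries too, at 1.16-fold.

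Levels of Xist and of Y-linked genes marked animal 1 of each group as the female and the others as males. With 1 female per group, sex and animal cannot be told apart. The difference between the genotype effects in males and in the female pair was tested after the data were seen, with edgeR's quasi-likelihood test over all genes, which called 187 genes (1.18%) and 1 of the 10. That gene was Efemp1: its log2 ratio of knockout-labelled over wild type was -0.77 in the female pair and 1.08 in males, a difference of 1.85 (adjusted p = 0.0207). The spread between animals in this test comes from the males alone, moderated across genes, and the lone female of each group is assumed to vary like them. For Fbn1 the ratios were -1.35 and -0.10 (adjusted p = 0.111) and for Mfap4 -1.18 and -0.18 (adjusted p = 0.133), which did not pass. For Eln they were -1.32 and -1.44, and for Loxl1 -0.97 and -0.79, so both were lower in the female pair and in males. The summed cornea and conjunctiva markers differed in the same directions as Efemp1. In animal 1 they had 2344 CPM (knockout-labelled) against 4647 CPM (wild type). In animals 2 and 3 they had 12660 and 9711 against 2025 and 2135 CPM. Their part in the difference of Efemp1 between males and the female pair was not tested.

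The genes most like Eln in their pattern over the 6 libraries, among those with a mean of at least 10 CPM, were Nos3, Rcn3, Wasf2, Chpf and Adamts10. The measure was the root mean square distance of centred log2 CPM, which was 0.189 for Nos3, the nitric oxide synthase of endothelium, and 0.236 to 0.248 for the others. Nos3 reached 23.9, 13.7 and 12.7 CPM in the knockout-labelled and 44.8, 33.3 and 41.7 CPM in the wild-type animals 1 to 3. Adamts10, a secreted protease of the ADAMTS family that binds microfibrils, was also among the other elastic fibre genes listed below. Of the other 9 genes of the set, Loxl1 came nearest to Eln (distance 0.316, place 21), followed by Fbln2 (0.369, place 56), and Efemp1 was farthest (1.07).

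A further 70 genes of elastic fibre assembly, attachment and breakdown were listed by role, and 67 of them passed the filter. None was called in edgeR's quasi-likelihood test. Before adjustment, 17 were lower and 2 higher with a p under 0.05, where 6.62% of all genes were lower and 7.55% higher. DESeq2 called 7 of them, and 3.0% of all genes, and edgeR's exact test 5, and 2.23% of all genes. No overlap was seen for 16 lower and 4 higher genes, where 9.96% of all genes were lower and 10% higher without overlap; the same shares apply to the counts without overlap by role that follow. The median log2 fold change of the 67 was -0.15. Over all 15796 genes tested, 7711 lay below 0 and 8085 above it, which the counts by sign below can be set against.

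The proteins of the microfibril surroundings lay mostly below 0. Of 11 microfibril and elastin-binding genes, 10 had a log2 fold change below 0 and 3 did not overlap, with a median of -0.45. Emilin1, which sits between elastin and microfibrils, had a log2 fold change of -0.73 (edgeR adjusted p = 0.132), and Hmcn1, a large basement membrane relative of the fibulins, -0.92 (0.126). The abundant Bgn and Fbln1 had -0.42 and -0.12, with overlap; that of Fbln1 turned above 0 in 4 of the other settings.

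All 4 latent TGF-beta binding proteins, which dock the growth factor on microfibrils, lay below 0, and 3 did not overlap. Ltbp4, which also assists elastin assembly with fibulins, reached 276, 263 and 233 CPM in the knockout-labelled and 445, 468 and 456 CPM in the wild-type animals 1 to 3. The groups of Ltbp4 stood apart, with a log2 fold change of -0.83 and an edgeR adjusted p of 0.0916. Ltbp2 had -0.83 (0.216) and Ltbp3 -0.30. The transcripts of Ltbp4, Ltbp2 and Ltbp3 hold 62.2, 58.5 and 58.3% GC, against a median of 49.9% over the genes tested. After the GC correction their log2 fold changes were -0.48, -0.57 and -0.08, and the edgeR adjusted p of Ltbp4 was 0.245.

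All 7 ADAMTS and ADAMTS-like genes also lay below 0, with a median of -0.50, and 2 did not overlap. Adamts10 reached 81.3, 58.3 and 58.8 CPM in the knockout-labelled against 142, 127 and 123 CPM in the wild-type animals 1 to 3, a log2 fold change of -0.98 (edgeR adjusted p = 0.086). Adamtsl2 had -1.01 (0.219), at a low level of 4.06 to 11.2 CPM. Adamtsl4 had -0.08 and turned above 0 in 5 of the other settings.

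Genes of cross-linking and its activation had 7 of 9 tested members below 0 and 3 without overlap. Bmp1, the protease that activates pro-lysyl oxidase, had a log2 fold change of -0.49 (edgeR adjusted p = 0.185). Pcolce, an enhancer of that protease, had -0.42, and Fn1, the matrix protein fibronectin, -0.41; Fn1 overlapped and turned to 0.08 with male animals only.

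Of 9 elastin receptor genes, 6 had a log2 fold change below 0 and 3 above it, with a median of -0.11. There was no overlap for 1 lower gene (Itga5, an integrin chain named after its values were seen) and 1 higher gene, Lgals3. Lgals3, a galectin and elastin-binding protein also made by macrophages, reached 159, 196 and 205 CPM in the knockout-labelled against 101, 124 and 78.3 CPM in the wild-type animals 1 to 3. Its groups did not overlap, with a log2 fold change of 0.88 (edgeR adjusted p = 0.128), while the integrin chain Itgb1 had 0.12 with overlap. Of 9 elastin-degrading proteases tested, 7 lay above 0, with a median of 0.10. For 0 of them was the gene higher at an unadjusted p under 0.05 in edgeR's quasi-likelihood test. The 1 protease without overlap was lower: Ctsk, at -0.23, named after its values were seen. The cathepsins Ctss and Ctsl had 0.27 and 0.07, with overlap, and Ctsl turned below 0 in 4 of the other settings. Of 8 protease inhibitors, 5 lay above 0. Timp3, an inhibitor of metalloproteases that is deposited in Bruch's membrane, had -0.48 (edgeR adjusted p = 0.337) with overlap. Cst3 had 0.0036 and changed sign with the scaling. Growth factor signals were split, 5 above and 5 below 0, with Tgfb3 at -0.59 (edgeR adjusted p = 0.215) and Tgfbr2 at -0.15.

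**Figure D4:**
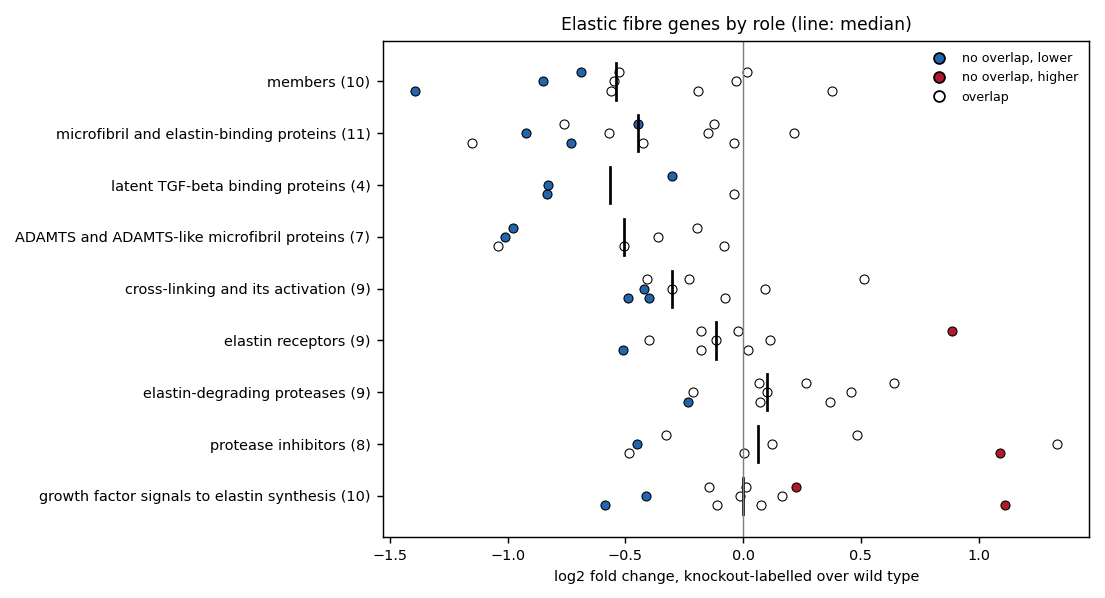
Log2 fold change of knockout-labelled over wild type for each tested elastic fibre gene, 1 row per role with the number of genes in brackets; circles are genes, filled where the groups do not overlap, and lines are medians. Every gene of the latent TGF-beta binding proteins (4) and of the ADAMTS group (7) lies below 0, and 7 of 9 proteases lie above it. Some of these lie near 0, such as Ltbp1 at -0.04 and Ctsl at 0.07. Of all 15796 genes tested, 7711 lay below 0 and 8085 above it.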

How the data were processed

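The deposited counts are whole numbers of reads per gene and animal, made by the authors with HTSeq after TopHat and Bowtie alignment to mm10 (per the submitters' processing notes). Not given in the sources used here are the versions, the annotation and the strand setting. The authors' deposited edgeR table gives p-values, FDR, log2 fold changes and log2 CPM. PolyA-enriched libraries were made per the labels' protocols. From the counts, edgeR 4.0.16 in R 4.3.3 was run with filterByExpr (minimum count 10, total 15), TMM, glmQLFit and glmQLFTest on genotype, with Benjamini-Hochberg adjustment over 15796 genes. SE is the absolute log2 fold change over the square root of F. The p-values measure the spread between 3 animals a group. The tallies of the counting tool (no feature 14.4 to 16.76%, ambiguous 0.42 to 0.78%, not unique 18.7 to 25.06%) were left out. Coordinates, exon lengths and GC came from GENCODE M21 (GRCm38, the same build as mm10), which matched 21751 rows by name. The fit was tested on simulated data.

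The members and lists were chosen with earlier results of these data known. Named besides the members were, from each list, called genes, genes without overlap at an unadjusted p under 0.01, the 2 with the highest level per length, and the 5 nearest to Eln. Alternatives were RLE and upper-quartile factors, other filters, DESeq2 1.42.0, limma-voom (limma 3.58.1), the exact test, covariates for sex and cornea markers, a GC correction, a replicate block and each library left out. Male animals only and the sex interaction were added after the data were seen.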

Additional observations from a re-analysis of the deposited data

Results flagged for a closer look

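For Efemp1, in edgeR's quasi-likelihood test of the interaction, the log2 ratio of knockout-labelled over wild type was 1.85 higher in males than in the female pair (-0.77 in the pair of animals 1, 1.08 in animals 2 and 3; adjusted p = 0.0207). For Fbln5 the same difference was 0.58, with ratios of -0.40 and 0.18 of opposite sign, and did not pass after adjustment (unadjusted p = 0.046, adjusted p = 0.374, edgeR). There was 1 female per group, so the spread between animals comes from the males alone, each lone female is assumed to vary like them, and sex and animal cannot be told apart. The summed cornea and conjunctiva markers were also lower in the knockout-labelled library of animal 1 and higher in those of animals 2 and 3. Their part in these differences was not tested.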

How the results depend on the processing

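In edgeR and the other tools, the count of genes called moved from 8 to 15 with upper-quartile factors, 22 without a filter, 16 at CPM of at least 1, 458 in DESeq2, 13 in limma-voom, 352 in the exact test, 1 with the replicate block, 1 with sex as a covariate, 41 with the cornea markers, 874 with male animals only, and 0 to 795 with 1 library left out (795 without knockout-labelled animal 1). Of the 10 elastic fibre genes, 2 were called with upper-quartile factors, without a filter, at CPM of at least 1, in limma-voom and with the cornea markers, 3 in DESeq2, the exact test and male animals only, 0 with the replicate block, with sex and with the GC correction, and 0 to 3 with 1 library left out. Of the other elastic fibre genes (0 called), 1 was called without a filter and in limma-voom, 7 in DESeq2, 5 in the exact test and with male animals only, 2 with the cornea markers, and 0 to 8 with 1 library left out. Eln had -1.40 with the replicate block (adjusted p = 0.206), -1.40 with sex (0.0581), -1.15 with the GC correction and -1.52 to -1.26 with 1 library left out. The animal numbers did not pair the libraries: same-numbered animals correlated at -0.177, -0.228 and -0.153. Sign turned for the following, with the range over libraries left out in turn: Fbln5 (0.18 with male animals only, left out -0.14 to 0.16), Efemp1 (-0.062, cornea markers), Efemp2 (-0.0011 without a filter, -0.16 males, left out -0.13 to 0.12), Fbln1 (0.0077 GC, 0.19 males, left out -0.31 to 0.039), Adamtsl4 (0.10 cornea markers, 0.17 GC, left out -0.41 to 0.090), Fn1 (0.081 males), Ctsl (-0.011 cornea markers, -0.034 GC, left out -0.075 to 0.13) and Cst3 (-0.00022 RLE, -0.0090 upper quartile, -0.014 without a filter, -0.00052 DESeq2, -0.33 males, left out -0.17 to 0.14). The cause was not tested. The count of the 10 without overlap stayed at 3 under each scaling tried.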
